A study of Homo sapiens with 27 samples.

Results

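The genes described here are 34 lipid genes under the control of the sterol-responsive transcription factors SREBP and LXR. Their RNA was measured in REH cells given oligonucleotides against 4 long non-coding RNAs (lncRNAs). The genes were taken as a list of names, chosen with earlier results of these data known, so their called shares are descriptive. The list holds 7 genes for mevalonate and isoprenoid steps, 11 for squalene and sterol steps and 5 for SREBP regulators and sterol transfer. The rest are 7 genes for fatty acid and glycerolipid synthesis and 4 LXR targets and sterol export genes. All 34 passed the filter on low counts that left 16268 of the 60619 gene identifiers for testing. REH is a human cell line from B-cell precursor acute lymphoblastic leukemia that carries the ETV6/RUNX1 fusion, and all groups are cultures of this 1 line.

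The cells took up LNA GapmeRs from the medium without a transfection reagent (gymnosis) and were harvested after 72 h. A GapmeR is a short single-stranded oligonucleotide with locked nucleic acid ends, which pairs with an RNA so that RNase H cuts that RNA. The 27 samples formed 10 groups: cells in medium (2 samples), cells with a non-targeting GapmeR (NTC, 3 samples), and cells with GapmeR1 or GapmeR2 against lnc-NKX2-3-1 (2 and 3 samples), lnc-RTN4R-1 (3 and 3), lnc-TIMM21-5 (3 and 3) and lnc-ASTN1-1 (3 and 2). Every GapmeR was used at 10 µM, and the labels give 20% fetal bovine serum for every culture. The replicate numbers 1 to 3 stand for experiments on different days per the methods, and medium, lnc-NKX2-3-1 GapmeR1 and lnc-ASTN1-1 GapmeR2 lack 1 of these numbers. Nothing beyond the day says that cultures were kept apart, so the p-values measure the spread between these samples.

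Cells make cholesterol from acetyl units through mevalonate and squalene. When sterols in the endoplasmic reticulum run low, SCAP escorts SREBP to the Golgi, where proteases release its active part, while INSIG1 holds the SCAP-SREBP complex back when sterols are plentiful. SREBF2 encodes the form that mainly drives cholesterol genes and SREBF1 the forms that mainly drive fatty acid genes, and oxidised sterols activate LXR, which raises sterol exporters such as ABCA1 and ABCG1.

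Total counts ran from 14627110 to 22750945 per sample (median 18776820), and 71.5 to 77.0% of reads were assigned to genes. In every sample with its own GapmeRs a targeted lncRNA lay below all 5 controls, and the remaining level ran from 15.2% of the control mean (lnc-NKX2-3-1, whose controls had at most 1.23 CPM) to 45.3% (lnc-ASTN1-1). Of 12 B-cell precursor markers 11 reached 1 CPM (counts per 1000000 counts) in every sample and VPREB1 had no count, while all 4 T cell and all 4 erythroid markers stayed under 1 CPM. Of 4 myeloid markers MPO was present in every sample, at 84.8 to 132 CPM in the 5 controls, while CD14 and LYZ stayed under 1 CPM and CSF1R reached at most 2.59 CPM. Of 4 epithelial, stromal and liver markers EPCAM had no count, KRT8 and ALB reached at most 0.225 and 1.99 CPM, and COL1A1 had 5.9 to 17.6 CPM. In bulk samples such as these, fewer cells of a type and less RNA per cell cannot be told apart.

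The sequences of 2 GapmeRs are shown because a called gene of the set holds a stretch that can pair with part of them, and that part is in capitals in both strands. The search for such stretches was made after the expression values had been seen.

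lnc-ASTN1-1 GapmeR1, part that pairs with SREBF2: tAATCTGCCAGGAgtg
SREBF2 intron, sense strand, chr22:41849158-41849187 (hg38): tgcatgcagTCCTGGCAGATTtattattta
lnc-RTN4R-1 GapmeR2, part that pairs with ABCA1: tgCTGAGACATCTAgg
ABCA1 intron, sense strand of the minus-strand gene, chr9:104845267-104845296 (hg38): taaaactcaTAGATGTCTCAGagctaattg

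Levels are given in CPM on library sizes scaled by the TMM method of edgeR. The genes differed widely in level: FADS2 had the highest median over the 27 samples (917 CPM) and CYP51A1 the lowest (8.93 CPM). Per kilobase of exon, which allows levels to be compared between genes, INSIG1 led with a median of 122 CPM per kb, ahead of SCD (96.8), FDFT1 (91.3) and FADS2 (86.9), and ABCA1 was lowest at 1.96. ELOVL6 and MYLIP had the widest ranges, with 3.05-fold and 3.08-fold between the lowest and the highest sample, and FADS1 the narrowest at 1.22-fold. Treatment group accounted for 97.8% of the variance of ELOVL6, while replicate number accounted for 81.0% of the variance of MYLIP. Over the 34 genes the median share by group was 64.1% and by replicate number 21.1%, against 43.3% and 24.0% over all genes tested. Each share came from a separate fit and was not adjusted for the number of levels. With 10 groups a larger share arises without any effect than with 3 replicate numbers. The share by group therefore cannot be compared with that by replicate number.

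Across the 10 groups 15 of the 34 genes varied at an adjusted p under 0.05 (edgeR quasi-likelihood test), where 16.1% of all genes did. With the replicate number as a block in the model, 32 of 34 did, where 48.6% of all genes did. The 8 genes with the smallest adjusted p in the model without the block were ELOVL6, LSS, HMGCS1, SREBF2, MVD, STARD4, DHCR7 and INSIG1. In the comparisons with the 5 controls 11 of the 34 genes passed the threshold with at least 1 GapmeR, and 28 did with the block. The share of all genes that did so was not counted, so these counts cannot be read as particular to the 34 genes. With lnc-NKX2-3-1 GapmeR1 alone 19.7% of all genes passed without the block and 35.8% with it. The 6 of the 34 that passed with no GapmeR in either model were PMVK, FDPS, FDFT1, CYP51A1, TM7SF2 and NPC1. All of these comparisons share the same 5 control samples.

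**Figure D1:**
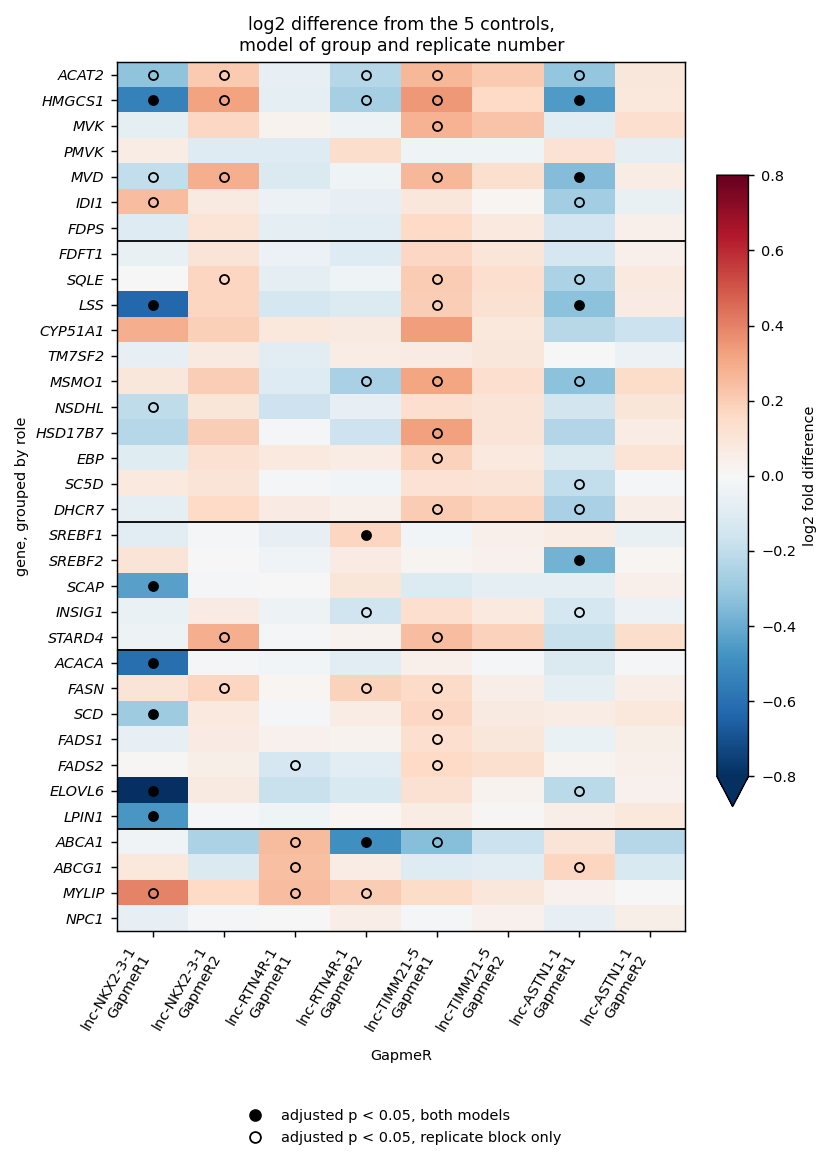
Log2 fold difference of each of the 34 genes (rows, grouped by role) from the 5 controls for each of the 8 GapmeRs (columns), from the model of group and replicate number. Filled circles mark an adjusted p under 0.05 with and without the replicate block and open circles with the block only; the 16 circles for lnc-TIMM21-5 GapmeR1 are all open.

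SREBF2 fell with lnc-ASTN1-1 GapmeR1 and with no other GapmeR. It encodes SREBP2, the main activator of the cholesterol genes, and lies on chr22:41833105-41907306 (hg38, plus strand). The 5 controls had 429 and 459 CPM in medium and 425, 449 and 477 CPM with NTC, and the 3 samples with lnc-ASTN1-1 GapmeR1 had 340, 340 and 363 CPM. All 3 lay below every other sample of the series. The log2 difference from the controls was -0.36 ± 0.06 (SE, adjusted p = 0.000556, n = 3 against 5, edgeR), and with the replicate block it was -0.38 ± 0.04 (adjusted p = 1.17e-09). With lnc-ASTN1-1 GapmeR2, the other oligonucleotide against the same lncRNA, SREBF2 had 448 and 471 CPM, inside the range of the controls. The direct difference of GapmeR1 from GapmeR2 was -0.40 ± 0.07 (adjusted p = 0.0032, edgeR), and it did not pass in a model of this comparison's samples alone (adjusted p = 0.253, edgeR) or without GapmeR2 replicate 3 (adjusted p = 0.117, edgeR). In the other 7 GapmeR groups the means ran from 443 ± 22.6 CPM (SD, n = 3, lnc-RTN4R-1 GapmeR1) to 473 ± 38.5 CPM (SD, n = 3, lnc-RTN4R-1 GapmeR2).

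Among the promoters found for 29 of the 34 genes, only that of SREBF2 held the exact SREBP site searched. The letters TCACNCCAC were searched on both strands in the RefSeq promoters of GRCh38.p14, in windows of 300 bases around the start of each gene, which gave 39 promoters for 29 of the 34 genes. The site was in 1 of these 39 and in 1.13% of all 35116 promoters. ACAT2, FDFT1, SQLE, FASN and ABCG1 had no promoter in the search. Variants of these letters and sites outside the windows were not searched, so the search does not show which genes lack a site. ATTGG, the letters that NF-Y binds, were in 59.0% of the 39 and in 34.6% of all promoters, and the E-box CACGTG was in 15.4% and 7.26%. In the SREBF2 promoter the SREBP site started 133 bases before the gene and an ATTGG lay downstream of it, as shown here in capitals because SREBF2 is the factor gene of the set that changed most.

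SREBF2 promoter, plus strand, chr22:41832927-41833026 (GRCh38.p14): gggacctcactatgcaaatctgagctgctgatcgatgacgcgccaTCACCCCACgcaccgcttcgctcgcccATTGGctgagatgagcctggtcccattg

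The unspliced SREBF2 RNA also holds the intron stretch shown above, which pairs with lnc-ASTN1-1 GapmeR1 over 12 bases. Such a stretch of 12 or more bases was found in 338 of 16024 genes with an annotation (2.11%). Of those 338 genes, 65 (19.2%) were lower with lnc-ASTN1-1 GapmeR1, where 0.986% of the 16024 were. Their median log2 difference was -0.17, against 0.00 over all genes. They were also longer genes, with a median span of 129 kb against 24.3 kb. SREBF2 also pairs over 13 bases with lnc-TIMM21-5 GapmeR1, where it had 442, 451 and 484 CPM and was not called. Of the 155 genes with 13 or more paired bases for that GapmeR, 15 (9.68%) were lower with it, where 0.175% of all genes were. The median span of the 155 genes was 165 kb. IDI1 and FADS1 pair over 12 bases with lnc-ASTN1-1 GapmeR1 and gave log2 differences of -0.30 and -0.05 that did not pass without the block, while IDI1 passed with it (-0.28). ABCG1 pairs over 12 bases with lnc-TIMM21-5 GapmeR1, FDFT1 with lnc-NKX2-3-1 GapmeR2, and ACACA with the latter and with lnc-ASTN1-1 GapmeR2, and none of them passed with those GapmeRs in either model. The part of the paired stretch in the lower SREBF2 level was not tested.

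**Figure D2:**
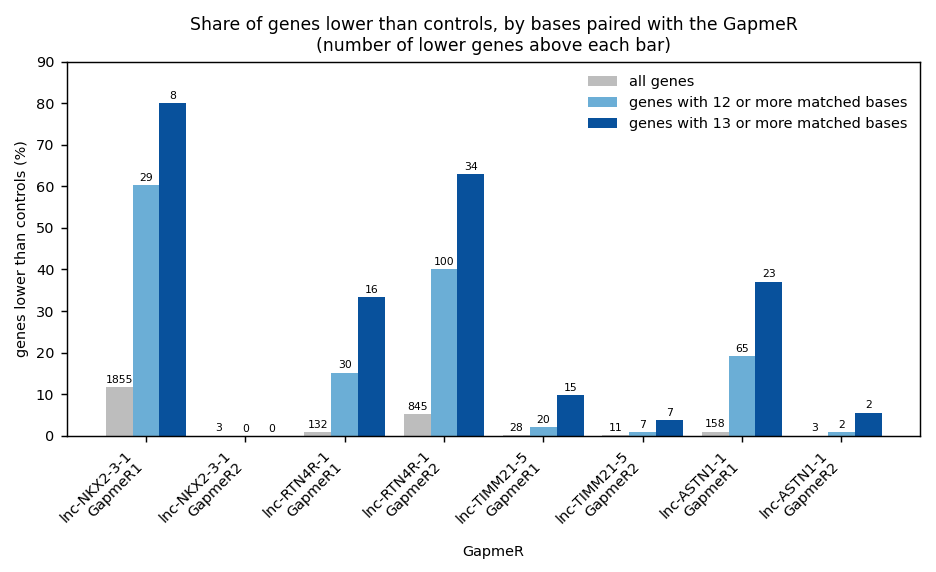
Percentage of genes lower than the 5 controls (edgeR, adjusted p under 0.05, model without the replicate block) for each GapmeR, over all genes with an annotation and over genes that pair with the GapmeR over at least 12 or 13 bases; numbers above the bars count the lower genes. The bars rise with the paired length for 7 of the 8 GapmeRs. For lnc-NKX2-3-1 GapmeR2, with which 3 of all genes were lower, the bars of paired genes are 0. With every GapmeR the paired genes also had a longer median span than all genes.

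With lnc-ASTN1-1 GapmeR1 some sterol pathway genes fell together with SREBF2. 4 of the 34 genes were lower and 0 higher, where 0.996% of all genes were lower and 1.2% changed in either direction. They were SREBF2, HMGCS1 (hydroxymethylglutaryl-CoA synthase, which makes the precursor of mevalonate), MVD (mevalonate diphosphate decarboxylase) and LSS (lanosterol synthase, which forms lanosterol). With the replicate block 12 were lower and 1 higher, where 3.02% of all genes were lower and 4.77% changed. Beside those 4, the block called lower ACAT2, IDI1, SQLE, MSMO1, SC5D, DHCR7, INSIG1 and ELOVL6, and higher the LXR target ABCG1. PMVK and TM7SF2 passed in neither model and stayed near the controls. Their means were 32.8 and 47.5 CPM with the GapmeR, 30.1 and 47.4 CPM with NTC, and 31.9 and 48.1 CPM in medium. The median log2 difference of the 34 genes was -0.15 without and -0.14 with the block, against 0.00 and 0.01 over all genes. By role, without the block, the medians were -0.30 for the mevalonate genes, -0.22 for the squalene and sterol genes, -0.14 for the regulators, -0.05 for the fatty acid genes and 0.07 for the LXR targets.

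HMGCS1 had 532 to 613 CPM in the first 4 controls and 486 CPM in NTC replicate 3, and 407, 462 and 332 CPM with lnc-ASTN1-1 GapmeR1. All 3 samples were below every control, and the sample of replicate 3 was lowest in both groups. The log2 difference was -0.48 ± 0.12 (SE, adjusted p = 0.0406, edgeR). LSS had 271 to 333 CPM in the controls and 223, 247 and 228 CPM with the GapmeR, a log2 difference of -0.33 ± 0.08 (adjusted p = 0.0236, edgeR). MVD had 102 to 129 CPM in the controls and 84.2, 92.8 and 80.2 CPM with the GapmeR, a log2 difference of -0.37 ± 0.09 (adjusted p = 0.0399, edgeR). For both genes the 2 sets of samples did not overlap. The adjusted p of these 3 genes passed 0.05 in some alternatives and not in others: leaving out 1 sample left 1 to 4 of the 34 genes called, with 1 called without NTC replicate 2 or without GapmeR1 replicate 1 or 3, and 2 called without medium replicate 1 or 2 or without NTC replicate 1. With the block the count was 8 to 11.

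lnc-ASTN1-1 GapmeR2 changed 0 of the 34 genes without the block (edgeR; 0 at an unadjusted p under 0.05, 0 with DESeq2), where 0.0184% of all genes changed, and 0 with the block, where 0.135% did. The GapmeRs of lnc-ASTN1-1 differed directly in 1 of the 34 genes, SREBF2, where 0.553% of all genes differed, and in 12 of 34 with the block, where 1.67% did. Of these 12, 11 were lower with GapmeR1, among them HMGCS1 (log2 difference -0.54 ± 0.09), MSMO1 (-0.48), MVD (-0.41 ± 0.08) and LSS (-0.39 ± 0.07). Without replicate 3 of GapmeR2 the first of these counts was 0.

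**Figure D3:**
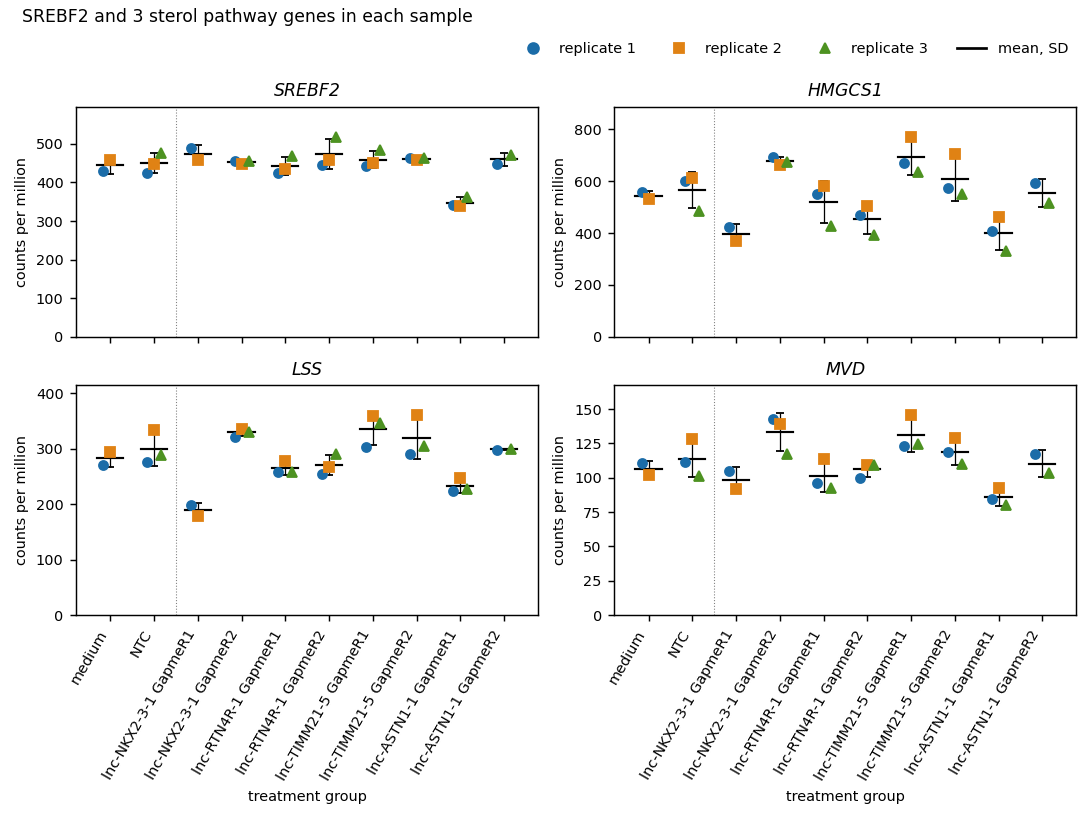
Level of SREBF2, HMGCS1, LSS and MVD in each of the 27 samples, in CPM on a linear axis from 0, by treatment group; symbols mark the replicate number, horizontal bars the group mean and error bars the SD over 2 or 3 samples. SREBF2 was lowest with lnc-ASTN1-1 GapmeR1, at 340 to 363 CPM, and LSS with lnc-NKX2-3-1 GapmeR1, at 179 and 198 CPM.

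lnc-TIMM21-5 GapmeR1 gave higher levels of sterol genes in the model with the block and no call in the model without it. The latter called 0 of the 34 genes (edgeR; 13 at an unadjusted p under 0.05, 12 of them higher; 0 with DESeq2), where 0.209% of all genes changed. With the block 15 were higher and 1 lower, where 1.78% of all genes were higher and 2.98% changed. The 15 were ACAT2, HMGCS1, MVK, MVD, SQLE, LSS, MSMO1, HSD17B7, EBP, DHCR7, STARD4, FASN, SCD, FADS1 and FADS2, and the lower gene was ABCA1. The count with the block rested on single samples: it was 1 without GapmeR1 replicate 2, 2 without GapmeR1 replicate 3, 7 without medium replicate 2 and 10 without medium replicate 1 or NTC replicate 3. It was 3 when replicates 1 and 2 alone were used.

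HMGCS1 had 671, 769 and 637 CPM with lnc-TIMM21-5 GapmeR1, all above the 5 controls, a log2 difference with the block of 0.35 ± 0.07 (adjusted p = 0.00937, edgeR). MVK, which phosphorylates mevalonate, was at 34.7 ± 3.32 CPM (SD, n = 3) against 28.9 ± 3.2 CPM with NTC. STARD4, a carrier of cholesterol between membranes, had 56.3, 56.2 and 60.9 CPM, above the highest control of 55.4 CPM. FADS1 and HSD17B7, a fatty acid desaturase and a sterol reductase, also lay above every control in all 3 samples. SREBF1 (311 ± 9.09 CPM) and SCAP (47.9 ± 0.869 CPM, SD, n = 3 each) were within the range of the controls, SREBF2 (459 ± 21.9 CPM) exceeded it in replicate 3, and none of these 3 genes passed in either model. The medians by role, without the block, were 0.20 and 0.18 for the mevalonate and the squalene and sterol genes and -0.03 for the LXR targets.

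lnc-TIMM21-5 GapmeR2 changed 0 of the 34 genes without the block (edgeR; 2 at an unadjusted p under 0.05, both higher; 0 with DESeq2), where 0.0676% of all genes changed, and 0 with it (10 at an unadjusted p under 0.05, 9 of them higher; 1 with DESeq2), where 0.584% did. HMGCS1 had 573, 707 and 549 CPM there. The GapmeRs of lnc-TIMM21-5 differed directly in 0 of 34 genes without the block (edgeR; 0 at an unadjusted p under 0.05; 0 with DESeq2), where 0.141% of all genes differed, and in 0 with it (9 at an unadjusted p under 0.05; 0 with DESeq2), where 0.375% did. A lack of calls does not show that the 2 oligonucleotides acted alike: for HMGCS1 the direct log2 difference with the block was 0.19 ± 0.08 (SE).

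Counted in either direction, lnc-NKX2-3-1 GapmeR1 changed the 34 genes about as often as all genes. Those called without the block were all lower, 4 of them in the fatty acid and glycerolipid role. This group has samples of replicates 1 and 2 alone. 7 of the 34 genes were lower and 0 higher, where 11.6% of all genes were lower, 8.14% higher and 19.7% changed. The share of 20.6% called among the 34 was near that of all genes in either direction and above the share that was lower. With the block 10 (29.4%) were lower and 2 (5.88%) higher, where 18.2% of all genes were lower, 17.6% higher and 35.8% changed. The 7 genes were ELOVL6, LSS, ACACA, LPIN1, HMGCS1, SCAP and SCD. By role, 4 of the 7 fatty acid and glycerolipid genes were lower, against 1 of 7, 1 of 11 and 1 of 5 in the mevalonate, squalene and regulator roles and 0 of 4 LXR targets.

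ELOVL6, which lengthens C16 fatty acids and lies on chr4:110045846-110199199 (hg38, minus strand), had the largest difference of the set. Both samples with lnc-NKX2-3-1 GapmeR1 had 9.17 CPM, where the 5 controls had 23.4 to 27.1 CPM and the lowest sample of any other group had 20.5 CPM. The log2 difference was -1.46 ± 0.08 (SE, adjusted p = 3.26e-12, n = 2 against 5, edgeR). The group means elsewhere were close together, from 21.6 ± 1.12 CPM (SD, n = 3) with lnc-ASTN1-1 GapmeR1 to 27.4 ± 0.981 CPM (SD, n = 3) with lnc-TIMM21-5 GapmeR1. No stretch of 12 or more bases in any of the 34 genes pairs with lnc-NKX2-3-1 GapmeR1.

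ACACA, the acetyl-CoA carboxylase that supplies malonyl-CoA for fatty acid synthesis, had 105 and 120 CPM against 153 to 196 CPM in the controls, a log2 difference of -0.58 ± 0.10 (adjusted p = 0.000198, edgeR). LPIN1, a phosphatidate phosphatase, had 69.4 and 67.0 CPM against 88.4 to 117 CPM, a log2 difference of -0.52 ± 0.12 (adjusted p = 0.00346, edgeR). SCAP, the escort of SREBP, had 35.9 and 38.7 CPM against 42.7 to 56.3 CPM, a log2 difference of -0.46 ± 0.09 (adjusted p = 0.000645, edgeR). In all 3 genes both samples lay below every control and every other group. LSS had 198 and 179 CPM (log2 difference -0.63 ± 0.09, adjusted p = 1.02e-05, edgeR) and HMGCS1 423 and 369 CPM (-0.49 ± 0.14, adjusted p = 0.0118, edgeR), again below all 5 controls. SCD, the stearoyl-CoA desaturase, had the smallest called difference, at 404 and 414 CPM against 466 to 531 CPM (-0.28 ± 0.08).

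Not all genes of these roles moved this way. Among the fatty acid genes FASN and FADS2 gave log2 differences of 0.12 and 0.03. Among the sterol and isoprenoid genes CYP51A1 and IDI1 gave 0.33 and 0.28, which did not pass without the block, while IDI1 passed with it (0.25). SREBF2 had 489 and 457 CPM and SREBF1 292 and 298 CPM, log2 differences of 0.08 and -0.09 that passed in neither model. MPO had 194 and 162 CPM in these samples, and its part in these differences was not tested. Leaving out 1 sample gave 4 to 8 called genes, with 4 without GapmeR1 replicate 2.

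lnc-NKX2-3-1 GapmeR2 changed 0 of the 34 genes without the block (edgeR; 4 at an unadjusted p under 0.05, all higher; 0 with DESeq2), where 0.0307% of all genes changed. With the block 6 were higher and 0 lower, where 1.68% of all genes were higher and 3.17% changed. The 6 were ACAT2, HMGCS1, MVD, SQLE, STARD4 and FASN, and the count was 2 without GapmeR2 replicate 1, GapmeR2 replicate 3 or medium replicate 2. HMGCS1 had 694, 664 and 674 CPM, above all 5 controls (log2 difference with the block 0.32 ± 0.07, adjusted p = 0.0192, edgeR).

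The 2 GapmeRs of lnc-NKX2-3-1 differed directly in 10 of the 34 genes, all lower with GapmeR1, where 11.1% of all genes were lower and 17.8% differed. With the block 22 differed, where 33.4% of all genes did. The largest direct log2 differences were -1.53 ± 0.09 for ELOVL6, -0.80 ± 0.10 for LSS, -0.77 ± 0.15 for HMGCS1, -0.56 ± 0.11 for ACACA, -0.54 ± 0.13 for LPIN1 and -0.45 ± 0.14 for HSD17B7. HSD17B7, the 3-keto sterol reductase, had 16.6 and 13.6 CPM with GapmeR1 and 20.1, 20.9 and 21.1 CPM with GapmeR2, on either side of the control range of 16.7 to 19.4 CPM. Without GapmeR1 replicate 2 the counts were 6 and, with the block, 12.

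**Figure D4:**
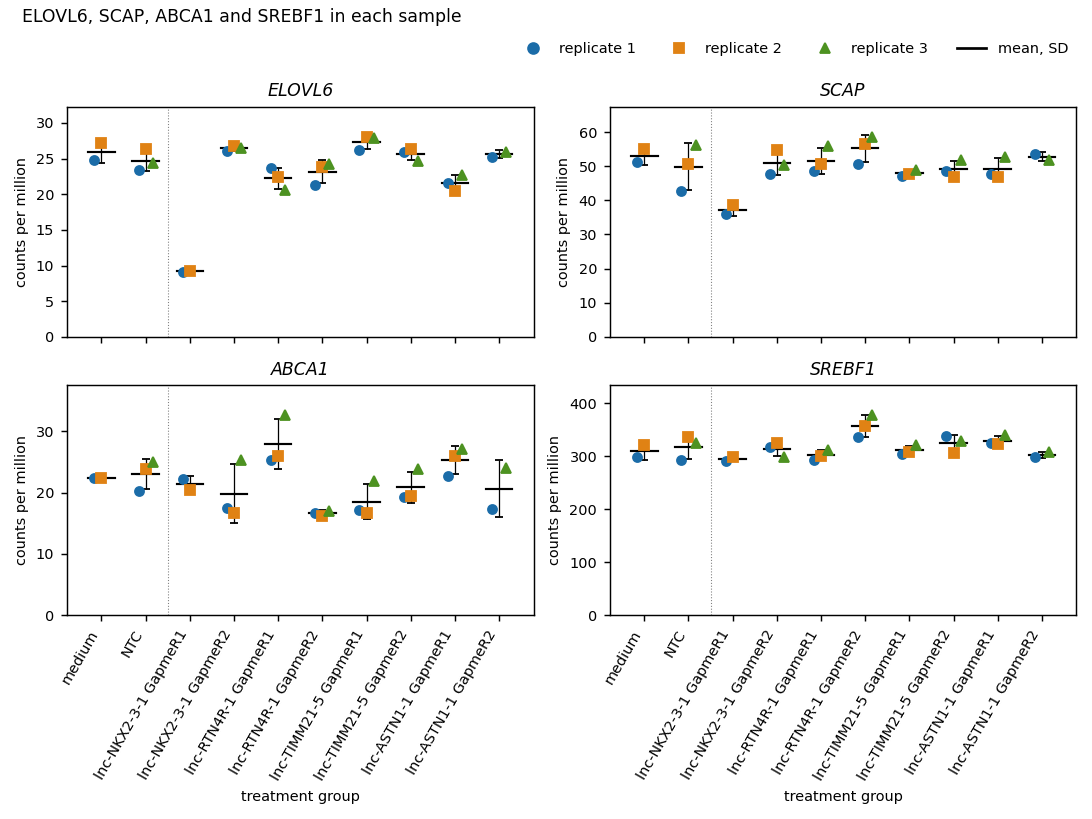
Level of ELOVL6, SCAP, ABCA1 and SREBF1 in each of the 27 samples, in CPM on a linear axis from 0, by treatment group; symbols mark the replicate number, horizontal bars the group mean and error bars the SD over 2 or 3 samples. ELOVL6 and SCAP were lowest with lnc-NKX2-3-1 GapmeR1, and with lnc-RTN4R-1 GapmeR2 ABCA1 was at 16.2 to 17.1 CPM and SREBF1 at 336 to 377 CPM.

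With the GapmeRs of lnc-RTN4R-1 the called shares of these genes were not far from those of all genes. ABCA1 went in opposite directions with GapmeR1 and GapmeR2. GapmeR2 changed 2 of the 34 genes, 1 higher and 1 lower, where 9.56% of all genes changed, and 8 with the block, where 26.3% did. GapmeR1 changed 0 (edgeR; 3 at an unadjusted p under 0.05, 2 of them higher; 0 with DESeq2), where 2.32% of all genes changed, and 4 with the block, where 8.8% did. These 4 were ABCA1, ABCG1 and MYLIP, all higher, and FADS2, lower. The GapmeRs differed directly in 2 of 34 genes, where 9.09% of all genes differed, and in 6 with the block, where 26.3% did.

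ABCA1 exports cholesterol from the cell and is induced by LXR, and it lies on chr9:104781006-104928155 (hg38, minus strand). It had 16.7, 16.2 and 17.1 CPM with lnc-RTN4R-1 GapmeR2 and 25.3, 25.9 and 32.6 CPM with GapmeR1, where the controls had 20.3 to 25.0 CPM. The samples of GapmeR2 lay below every control and those of GapmeR1 above. The log2 difference from the controls was -0.45 ± 0.14 with GapmeR2 (SE, adjusted p = 0.0367, edgeR) and 0.30 with GapmeR1, which passed with the block (0.25 ± 0.07, adjusted p = 0.0143). The direct difference was 0.75 ± 0.15 (adjusted p = 0.00151, edgeR). Without the block the call for GapmeR2 was lost with NTC as the only controls (adjusted p = 0.0617, edgeR) and when any 1 of the 8 samples but NTC replicate 1 was left out (adjusted p = 0.0584 to 0.122, edgeR). With the block the log2 difference was -0.49 ± 0.08 (adjusted p = 4.75e-06, edgeR). MPO was 291, 293 and 445 CPM in the GapmeR2 samples, above all others, and its part in this difference was not tested.

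ABCA1 holds the intron stretch shown above, which pairs with lnc-RTN4R-1 GapmeR2 over 12 bases. Of the 249 genes with a stretch of 12 or more bases for this GapmeR, 100 (40.2%) were lower with it, where 5.27% of the 16024 were. The median log2 difference of the 249 genes was -0.24 against 0.01. They were also longer genes, with a median span of 147 kb against 24.3 kb. ABCA1 was the 1 gene of the 34 among them. The part of this stretch in the lower ABCA1 level was not tested. ABCA1 also had 17.2, 16.6 and 21.8 CPM with lnc-TIMM21-5 GapmeR1, with which it has no such stretch, a log2 difference of -0.34 ± 0.07 with the block (adjusted p = 0.00524, edgeR).

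SREBF1, the factor gene for fatty acid synthesis, had 336, 357 and 377 CPM with lnc-RTN4R-1 GapmeR2 against 293 to 337 CPM in the controls, so 1 of the 3 samples lay inside the range of the controls. The log2 difference was 0.18 ± 0.06 (SE, adjusted p = 0.0407, edgeR), and it did not pass with NTC as the only controls, without the filter on low counts, with replicates 1 and 2 alone or with the samples of the comparison alone, nor without medium replicate 1, NTC replicate 1, GapmeR2 replicate 2 or GapmeR2 replicate 3. With the block it was 0.17 ± 0.04 (adjusted p = 0.00144, edgeR). The direct difference of GapmeR1 from GapmeR2 was -0.24 ± 0.06 (adjusted p = 0.0135, edgeR). It did not pass without the filter on low counts (adjusted p = 0.0504, edgeR), with the samples of the comparison alone (adjusted p = 0.0817, edgeR), or without GapmeR1 replicate 1 or GapmeR2 replicate 3 (adjusted p = 0.0706 and 0.0808, edgeR). INSIG1, the anchor of SCAP, had 397, 414 and 397 CPM with GapmeR2, below the control range of 420 to 470 CPM, and passed with the block (-0.16 ± 0.04, adjusted p = 0.00546, edgeR) and not without it.

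NTC and medium differed in 0 of the 34 genes (edgeR; 1 at an unadjusted p under 0.05, higher with NTC; 0 with DESeq2), where 0% of all 16268 genes did (575 at an unadjusted p under 0.05; 0 with DESeq2). With the block the counts were 0 of 34 and 0.0676% of all genes. The INSIG1 means were 429 ± 12.1 CPM in medium (SD, n = 2) and 465 ± 4.27 CPM with NTC (SD, n = 3), and the STARD4 means 44.1 ± 1.92 and 51.3 ± 4.72 CPM.

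The other regulators differed in which groups held their lowest and highest means. SREBF1 ran from 295 ± 4.52 CPM (SD, n = 2, lnc-NKX2-3-1 GapmeR1) to 357 ± 20.5 CPM (SD, n = 3, lnc-RTN4R-1 GapmeR2). SCAP ran from 37.3 ± 1.97 CPM (SD, n = 2, lnc-NKX2-3-1 GapmeR1) to 55.2 ± 4.03 CPM (SD, n = 3, lnc-RTN4R-1 GapmeR2). INSIG1, itself an SREBP target, ran from 403 ± 9.87 CPM (SD, n = 3, lnc-RTN4R-1 GapmeR2) to 494 ± 24.8 CPM (SD, n = 3, lnc-TIMM21-5 GapmeR1), with 408 ± 13.6 CPM (SD, n = 3) for lnc-ASTN1-1 GapmeR1 next to the lowest. For each of these 3 genes the samples of the lowest and the highest group did not overlap. Both groups were picked by their means, so this separation is not a test of a difference. DHCR7, the last enzyme of one branch to cholesterol, ran from 120 ± 5.6 CPM (SD, n = 3, lnc-ASTN1-1 GapmeR1) to 166 ± 18.0 CPM (SD, n = 3, lnc-TIMM21-5 GapmeR1), and STARD4 from 43.3 ± 2.96 CPM (SD, n = 3, lnc-ASTN1-1 GapmeR1) to 59.8 ± 6.24 CPM (SD, n = 3, lnc-NKX2-3-1 GapmeR2).

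Replicate 3, which was done on another day, differed from replicates 1 and 2 in 23 of the 34 genes. With treatment group in the model, it was lower in 16, where 26% of all genes were lower, and higher in 7, where 28.1% were, and 54.1% of all genes differed in either direction. All 7 mevalonate genes were lower, as were 5 of the 11 squalene and sterol genes, 3 of the 7 fatty acid and glycerolipid genes and the LXR target MYLIP. The 7 higher genes were the regulators SREBF2 and SCAP, STARD4, LPIN1 and the sterol export genes ABCA1, ABCG1 and NPC1. Medium and lnc-NKX2-3-1 GapmeR1 have no sample of replicate 3, and what differed between the days beyond the treatments is not given in the sources used here.

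ACAT2, which joins acetyl units at the head of the pathway, had a median of 155 CPM in replicate 1, 155 in replicate 2 and 111 in replicate 3, and within NTC 156, 162 and 104 CPM. Its log2 difference was -0.44 ± 0.03 (SE, adjusted p = 3.42e-13, edgeR). FDPS, which makes farnesyl diphosphate, had medians of 299, 300.1 and 246 CPM (-0.29 ± 0.03, adjusted p = 4.18e-10, edgeR). EBP, a sterol isomerase, had 84.0, 86.1 and 73.9 CPM (-0.23 ± 0.03, adjusted p = 9.89e-09, edgeR) and MVK 31.3, 30.3 and 26.7 CPM (-0.26 ± 0.04, adjusted p = 1.33e-07, edgeR). LPIN1 went the other way, with medians of 95.9, 94.0 and 116 CPM (0.27 ± 0.02, adjusted p = 1.24e-12, edgeR). Every LPIN1 sample of replicate 3, from 112 to 119 CPM, lay above every sample of replicates 1 and 2, whose highest was 101 CPM. ABCG1, a second exporter under LXR, had medians of 55.0, 58.6 and 65.6 CPM (0.28 ± 0.03, adjusted p = 1.13e-10, edgeR), and ABCA1 19.7, 20.4 and 24.4 CPM (0.30 ± 0.04, adjusted p = 1.8e-07, edgeR).

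Replicate 2 differed from replicate 1 in 9 of the 34 genes, where 23.4% of all genes differed: 7 were higher, where 12.7% of all genes were, and 2 lower, where 10.8% were. MYLIP, the LXR target that encodes the ubiquitin ligase IDOL, fell most. Its levels were 117 to 150 CPM in replicate 1, 48.6 to 94.3 CPM in replicate 2 and 78.0 to 90.4 CPM in replicate 3, so that every sample of replicate 1 was above all others. The log2 difference of replicate 2 from 1 was -0.77 ± 0.05 (SE, adjusted p = 2.49e-11, edgeR). The other LXR targets did not share this: ABCA1, ABCG1 and NPC1 gave log2 differences of 0.03, 0.06 and 0.07 between these days that did not pass. MSMO1, the sterol 4-alpha-methyl oxidase, rose most, with medians of 74.0 and 84.6 CPM (0.30 ± 0.05, adjusted p = 0.000149, edgeR).

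**Figure D5:**
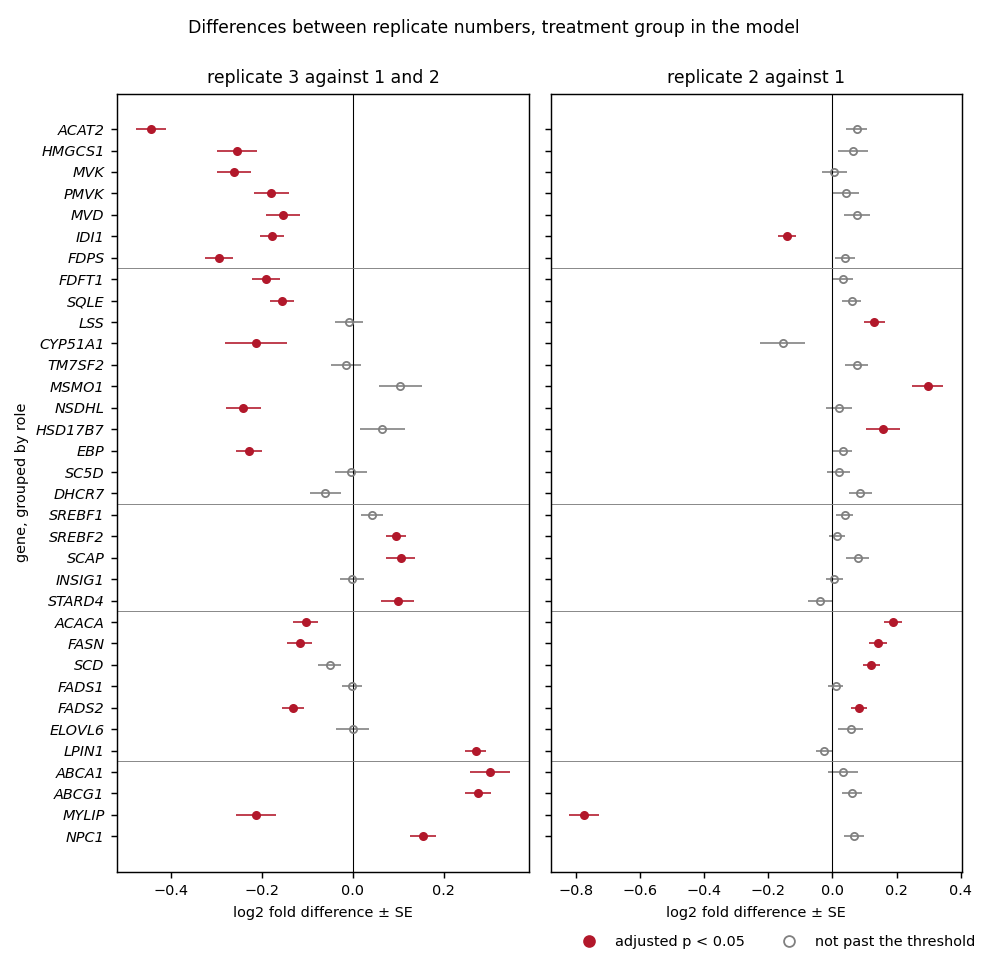
Log2 fold difference ± SE between replicate numbers for the 34 genes, from the model of treatment group and replicate number over all 27 samples, on linear axes with different ranges; filled red points passed an adjusted p of 0.05. On the left all 7 mevalonate genes at the top are below 0 and ABCA1, ABCG1 and NPC1 at the bottom above it, and on the right MYLIP is at -0.77.

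Further genes of these pathways were counted in 4 lists: 14 other sterol and isoprenoid genes, 11 for SREBP processing and degradation, 20 tested of 21 other fatty acid and glycerolipid genes, and 13 for LXR and cholesterol handling. With lnc-NKX2-3-1 GapmeR1, 1 was higher and 1 lower in the first list, 1 and 1 in the second, 2 and 4 in the third, and 3 and 4 in the fourth. Among the called genes of the third list the largest log2 differences were those of AGPAT3, a lysophospholipid acyltransferase (-0.45), ACSS2, which makes acetyl-CoA from acetate (-0.43), and LPIN2, a phosphatidate phosphatase (0.33). With lnc-RTN4R-1 GapmeR1, AGPAT3 fell by 1.58 on the log2 scale. AGPAT3 pairs with this GapmeR over 12 bases of an intron, a pairing whose part in the fall was not tested. It also pairs over 14 bases of an intron with lnc-NKX2-3-1 GapmeR2, with which its log2 difference was -0.05 and did not pass, and it has no such stretch for lnc-NKX2-3-1 GapmeR1, with which it fell.

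With lnc-RTN4R-1 GapmeR2, 3 of the 13 LXR and cholesterol handling genes changed, and SCARB1, the receptor for high-density lipoprotein, fell most (log2 difference -1.05 ± 0.09, adjusted p = 9.7e-09, edgeR). With lnc-ASTN1-1 GapmeR1, PGGT1B, a subunit of the enzyme that attaches geranylgeranyl groups to proteins, was the 1 listed gene to change (-0.98 ± 0.09, adjusted p = 1.01e-07, edgeR). It pairs with that GapmeR over 13 bases within an exon, a pairing whose part in the fall was not tested. With the other 4 GapmeRs, 0 of the 58 genes passed in edgeR without the block, and 2 to 4 had an unadjusted p under 0.05. DESeq2 was not counted over these lists. With the block the counts of 58 were 29 for lnc-NKX2-3-1 GapmeR1, 17 for lnc-RTN4R-1 GapmeR2, 10 for lnc-ASTN1-1 GapmeR1, 7 for lnc-RTN4R-1 GapmeR1 and 0 to 2 for the other 4, where 35.8%, 26.3%, 4.77% and 8.8% of all genes changed with the first 4 of these GapmeRs and 0.135% to 3.17% with the others. Without the block the counts for the first 4 were 17, 7, 1 and 2, where 19.7%, 9.56%, 1.2% and 2.32% of all genes changed.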

How the data were processed

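RNA of 27 REH samples was sequenced. The authors aligned reads to hg38 with STAR and deposited its gene counts, of which the reverse-strand column was used; the annotation release is not given in the sources used here. The labels name ribodepleted stranded libraries and the methods poly-A selection, and the serum share also differs between them. A title with "rpe2" was read as replicate 2. Counts were fitted with edgeR 4.0.16 (R 4.3.3; TMM, quasi-likelihood test, minimum count 10, Benjamini-Hochberg adjustment over 16268 genes, threshold 0.05) in 1 model of 10 groups, each GapmeR against NTC and medium weighted 3 to 2. Fold differences are on the log2 scale.

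Replicate numbers mark days per the methods. Deviations from group means correlated at 0.263 on average over 109 same-number pairs and -0.13 over 218 other pairs, so a fit with the number as a block is given beside the other. Alternatives were DESeq2 1.42.0, other normalization, filters, strand, controls and samples, and leaving out each sample. The procedure was tested on simulated data: of 200 changed genes 99.5% were recovered for lnc-NKX2-3-1 GapmeR1, with 4.79% false calls, and 100.0% for lnc-RTN4R-1 GapmeR2 (6.1% false) and for replicate 3 (6.98% false), both over the nominal share.

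The members and lists were chosen with earlier results of these data known. All 34 genes were accounted for. Named with values were 8 genes for variation across groups, 6 for replicates, up to 6 called genes per comparison, 4 regulators and up to 3 called genes per other list; further genes were named after their values were seen. GapmeR matches were perfect complements of at least 12 bases on the sense strand of GENCODE genes. Sequences are from the reference genome and RefSeq (GRCh38.p14).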

Additional observations from a re-analysis of the deposited data

Results flagged for a closer look

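The log2 difference between the GapmeRs of 1 lncRNA passed an adjusted p of 0.05 (edgeR, direct contrast of GapmeR1 with GapmeR2) for 13 gene and lncRNA pairs. For lnc-NKX2-3-1 all 10 were lower with GapmeR1: ELOVL6 (-1.53), LSS (-0.804), HMGCS1 (-0.775), ACACA (-0.558), LPIN1 (-0.545), HSD17B7 (-0.452), SCAP (-0.448), MVD (-0.438), STARD4 (-0.368) and SCD (-0.347). For lnc-RTN4R-1, ABCA1 was higher (0.747) and SREBF1 lower (-0.242) with GapmeR1. For lnc-ASTN1-1, SREBF2 was lower with GapmeR1 (-0.402). What sets the GapmeRs of a pair apart was not tested.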

How the results depend on the processing

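Counts are of the 34 genes, and the cause of each shift was not tested. Among single genes called without the block or between replicate numbers, none changed direction in an alternative. Calls against controls or between GapmeRs that were made only with the block were not checked for direction. With the replicate block the count across groups rose from 15 to 32. Against the controls it rose from 7 to 12 (lnc-NKX2-3-1 GapmeR1), 0 to 6 (its GapmeR2), 0 to 4 and 2 to 8 (lnc-RTN4R-1 GapmeR1 and GapmeR2), 0 to 16 (lnc-TIMM21-5 GapmeR1) and 4 to 13 (lnc-ASTN1-1 GapmeR1). Between the GapmeRs of 1 lncRNA it rose from 10 to 22 (lnc-NKX2-3-1), 2 to 6 (lnc-RTN4R-1) and 1 to 12 (lnc-ASTN1-1).

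Without the low-count filter the counts were 23 across groups, 1, 1, 2 and 8 for lnc-NKX2-3-1 GapmeR2, lnc-RTN4R-1 GapmeR1, lnc-TIMM21-5 GapmeR1 and lnc-ASTN1-1 GapmeR1, and 1 and 4 in the direct comparisons of lnc-RTN4R-1 and lnc-ASTN1-1. With NTC as the only controls they were 1 (lnc-RTN4R-1 GapmeR2) and 2 (lnc-ASTN1-1 GapmeR1), the latter also 2 with unstranded counts. With the samples of the comparison alone they were 1 for each of these GapmeRs, and 1 and 0 in the direct comparisons. DESeq2 gave 2 in the direct comparison of lnc-ASTN1-1. Replicate 2 differed from replicate 1 in 1 gene with no group term, against 9.

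Within the block model, replicates 1 and 2 alone gave 3 (lnc-NKX2-3-1 GapmeR2), 1 (lnc-RTN4R-1 GapmeR1), 3 (lnc-TIMM21-5 GapmeR1) and 6 (lnc-ASTN1-1 directly), and DESeq2 gave 1 for lnc-TIMM21-5 GapmeR2.

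Leaving out 1 sample gave 4 to 8 (lnc-NKX2-3-1 GapmeR1), 0 to 1 (lnc-RTN4R-1 GapmeR2) and 1 to 4 (lnc-ASTN1-1 GapmeR1), and directly 6 to 10, 1 to 2 and 0 to 1. With the block it gave 2 to 8 (lnc-NKX2-3-1 GapmeR2), 1 to 5 (lnc-RTN4R-1 GapmeR1), 1 to 18 and 0 to 3 (lnc-TIMM21-5 GapmeR1 and GapmeR2) and 8 to 11 (lnc-ASTN1-1 GapmeR1), directly 12 to 22, 3 to 6 and 5 to 11, and 0 to 1 for NTC against medium. Groups of 2 or 3 samples limit the precision of every value.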
